A study of Homo sapiens with 8 samples.

Results

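SOD2 and 9 other genes for scavengers of reactive oxygen were compared between the outer and the inner cells of mammary epithelial acini. The genes were chosen by name, with earlier results of these data known, as SOD1, SOD2, CAT, GPX1, GPX2, GPX4, PRDX2, PRDX3, PRDX5 and PRDX6. Every probe that the deposited table assigned to one of them was taken. This gave 12 probes for 10 genes, among 20589 probes and 18190 gene symbols on the array. MCF10A is a human mammary epithelial line, immortal but not tumorigenic, and MCF10A-5E is a clonal derivative of it, so the values describe 1 clone. The cells were grown on a coat of 100% Matrigel, a reconstituted basement membrane, in DMEM/F12 with 2% horse serum, 0.5 µg/ml hydrocortisone, 100 ng/ml cholera toxin, 10 µg/ml insulin, 5 ng/ml EGF and 2% Matrigel, and both groups shared all of these agents. At day 6 of morphogenesis, about 50 cells per sample were cut by laser microdissection from 8 µm sections, either outer cells attached to the matrix (4 arrays) or inner cells without attachment (4 arrays). Poly(A) PCR served to amplify the RNA, which was labelled with a fluorescent dye and hybridised to Illumina HumanRef-8 v2.0 BeadChips. The labels do not tie the samples to separate cultures or acini, and the RNA is described as amplified in quadruplicate, so p-values measure only the spread between these arrays, which may be technical.

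Superoxide leaks from the mitochondrial respiratory chain and is made by dedicated oxidases. Superoxide dismutases turn it into hydrogen peroxide, with SOD1 acting with copper and zinc mainly in the cytosol and SOD2 with manganese in the mitochondrial matrix. Catalase, glutathione peroxidases and peroxiredoxins then remove hydrogen peroxide and lipid peroxides, the peroxidases at the expense of glutathione and most peroxiredoxins at that of thioredoxin. In mammary acini, loss of matrix contact is known to raise reactive oxygen in inner cells, and SOD2 is known as a gene that detached mammary epithelial cells induce. The comparison of matrix-attached with inner cells therefore bears on how transcripts of these enzymes are spread over the acinus.

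SOD2 was the member that differed most between the groups, with lower values on every outer array than on any inner array, and the other dismutase SOD1 did not follow it. GPX4 also had lower values on all outer arrays, by a small amount. Of all 6698 probes tested, 5.26% had groups that did not overlap. The 95% intervals of GPX4 and of all tested members other than SOD2 included 0. No member passed the adjusted threshold, which 0.0149% of all probes tested did.

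The sequences upstream of SOD2 and CAT are shown because these genes stood at the opposite ends of the members' differences. They come from RefSeq (GRCh38.p14), which had a start window for 8 of the 10 members, and cover 250 bases before an annotated start. Capitals mark GC boxes (GGGCGG, or CCGCCC on the other strand), the letters that factors of the Sp1 family bind, and CCAAT boxes (CCAAT, or ATTGG on the other strand). The table lists 4 starts for SOD2, of which the most downstream is shown, on the minus strand at chr6:159693242-159693491. The window of CAT is on the plus strand at chr11:34438684-34438933.
SOD2: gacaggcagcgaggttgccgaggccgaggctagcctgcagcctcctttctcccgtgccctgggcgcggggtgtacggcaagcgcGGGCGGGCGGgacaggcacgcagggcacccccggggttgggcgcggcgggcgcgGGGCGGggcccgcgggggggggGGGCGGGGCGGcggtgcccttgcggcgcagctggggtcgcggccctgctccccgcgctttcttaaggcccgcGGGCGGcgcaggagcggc
CAT: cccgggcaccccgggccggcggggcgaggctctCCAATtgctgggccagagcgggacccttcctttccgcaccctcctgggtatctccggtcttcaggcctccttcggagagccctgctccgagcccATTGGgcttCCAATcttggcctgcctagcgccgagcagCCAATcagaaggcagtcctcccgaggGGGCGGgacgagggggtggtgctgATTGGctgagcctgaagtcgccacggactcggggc

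The SOD2 window held 6 GC boxes, counting overlapping matches, and 0 CCAAT boxes. The CAT window held 1 GC box and 5 CCAAT boxes. The other 3 SOD2 windows held 4, 1 and 1 GC boxes and 0, 1 and 3 CCAAT boxes, so the contrast with CAT depends on the start shown. Of all 35116 start windows of this length, 42.6% held at least 1 GC box and 32.0% at least 1 CCAAT box. These matches describe letters in the genome. The arrays did not measure which start was used or what was bound there.

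Both groups were checked against markers of the labelled tissue. The basal epithelial markers KRT5, KRT14, KRT17, TP63, ITGB4 and LAMA3 were detected on all 8 arrays, and ITGA6 was not detected on any. Here detected means a deposited detection p below 0.01. For ITGB4 and LAMA3 this holds for 1 probe each, and the other probe of each was at 0 arrays. All measured endothelial markers and all measured erythroid markers were at 0 arrays, as were LYZ, CXCR2, FCGR3B and ITGAM among the leukocyte markers. PTPRC was detected by 1 of its probes on 1 array, CD68 on all 8 arrays, CSF1R on 3 outer and 2 inner arrays and CD14 on 3 inner arrays. Between 6429 and 7000 probes per array were detected. In bulk samples of this kind, fewer cells of a type and less RNA per cell cannot be told apart.

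SOD2, the manganese dismutase, had 2 probes on the array. The probe for transcript variant 2 (ILMN_19760) gave deposited intensities of 8576, 9767, 9149 and 7977 on inner replicates 1 to 4. On outer replicates 1 to 4 it gave 5019, 4388, 5598 and 3615. The highest outer array was thus well below the lowest inner array before any normalization, and the standard error over the beads of 1 array was only 2.87% to 4.71% of each value.

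**Figure D1:**
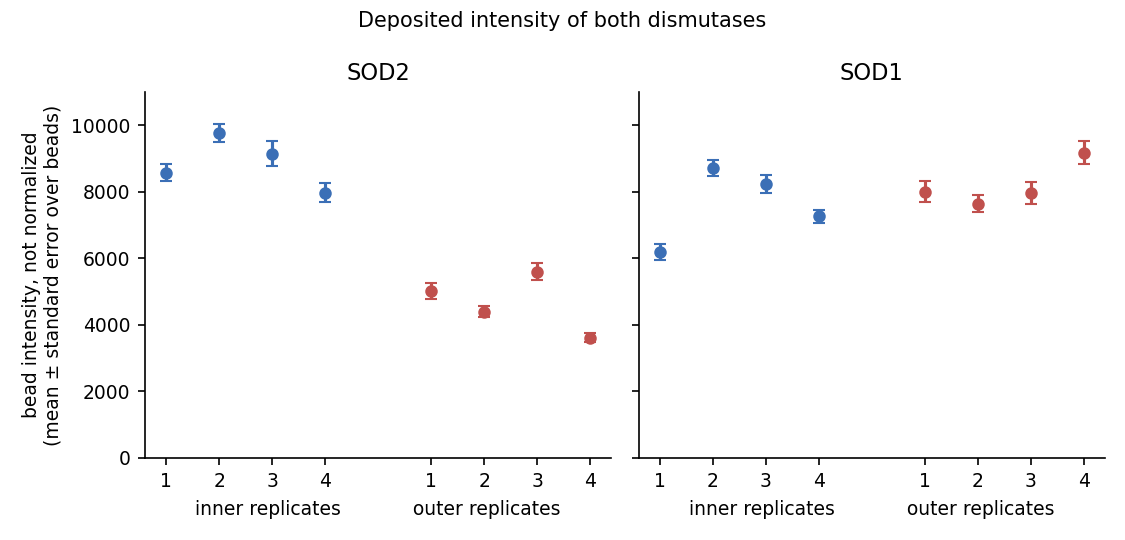
Deposited bead intensity, not normalized, of SOD2 (ILMN_19760, left) and SOD1 (ILMN_14302, right) on each of the 4 inner arrays (blue) and 4 outer arrays (red), with bars for the standard error over the beads of an array. SOD2 lies between 3615 and 5598 on outer arrays and between 7977 and 9767 on inner arrays, while SOD1 overlaps between the groups.

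After background correction, quantile normalization and log2 transformation (neqc), SOD2 was at 13.30, 12.98, 13.16 and 12.94 on the inner arrays and at 12.06, 12.01, 12.25 and 11.71 on the outer arrays. The groups did not overlap. The outer arrays averaged 12.01 ± 0.22 and the inner arrays 13.09 ± 0.17 (SD, n = 4 each). The log2 difference of outer minus inner was -1.08 with a standard error of 0.14 and a 95% interval of -1.41 to -0.76, so that SOD2 was 2.12-fold higher in inner cells. Over all probes tested, its p ranked 4 of 6698, and the adjusted p was 0.152 (limma, Benjamini-Hochberg), above the threshold of 0.05. For SOD2 as a single value, the exact two-sided permutation test gave p = 0.0286, the smallest p that 4 against 4 arrays allow. That test takes no account of the other probes, or of the choice of SOD2 with earlier results of these data known. The authors' deposited table gives 1.91 as the ratio of inner over outer of their scaled values. That is a ratio of group medians, whereas 2.12 comes from means of log2 values.

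The second SOD2 probe, for transcript variant 1 (ILMN_19880), gave intensities of 22.2 to 26.9 on inner and 23.8 to 27.3 on outer arrays and was detected on 0 of 8 arrays. Neither group was therefore measured above background by it, and the pattern of SOD2 rests on 1 probe. It does not show whether that variant was made.

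SOD1 (ILMN_14302), the copper-zinc dismutase, had log2 values of 12.83, 12.78, 12.97 and 12.81 on inner arrays and of 12.82, 12.82, 12.84 and 13.07 on outer arrays. Outer replicate 4 was the highest of all and the groups overlapped. The log2 difference was 0.04, with a 95% interval of -0.16 to 0.24 (limma, adjusted p = 0.954), and it was -0.02 without outer replicate 4.

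To compare both dismutases within an array, the log2 value of SOD1 was subtracted from that of SOD2, which removes any factor that scales a whole array. This quantity was 0.47, 0.20, 0.19 and 0.13 on inner arrays and -0.76, -0.82, -0.59 and -1.35 on outer arrays. Its level has no meaning of its own, since it sets 1 probe against another, but its shift between groups does. The shift was -1.13, from 0.25 ± 0.15 on inner to -0.88 ± 0.33 on outer arrays (SD, n = 4 each), without overlap (exact two-sided permutation test, p = 0.0286, the smallest possible). On these arrays SOD2 thus differed between the groups by more than SOD1 did. Both genes were chosen with earlier results of these data known, so the p is a description and not independent evidence.

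**Figure D2:**
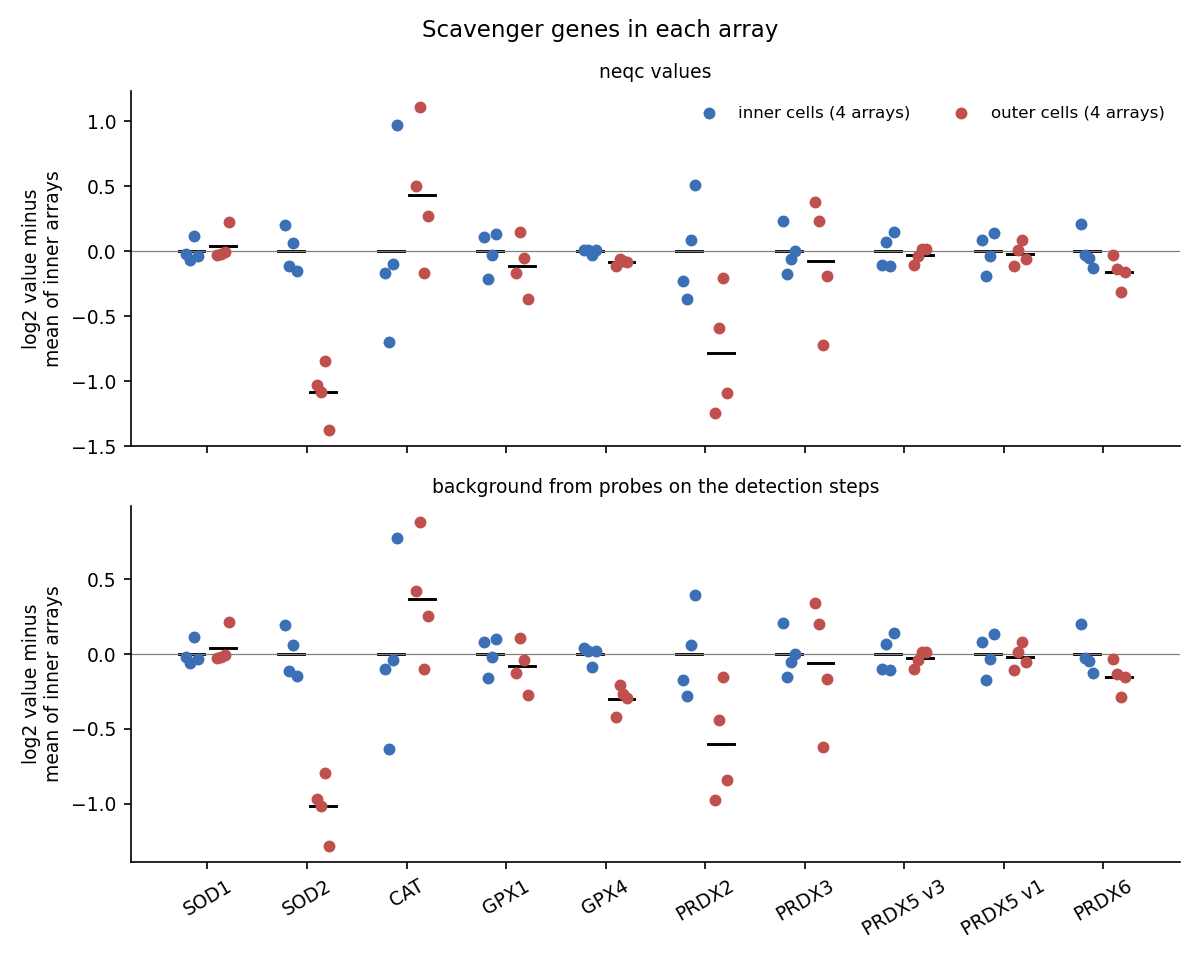
Log2 value on each array, minus the mean of the 4 inner arrays, for inner (blue) and outer (red) arrays, with black bars at group means. All member probes are shown except GPX2 and the SOD2 probe for transcript variant 1. GPX1 and PRDX2 are included, though they missed the detection filter of the neqc fit. The upper panel shows neqc values and the lower panel values with the background estimated from probes on the regular detection steps, PRDX5 v3 and v1 being its probes for transcript variants 3 and 1. SOD2 and GPX4 are the probes whose groups do not overlap.

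Catalase, encoded by CAT (ILMN_13962), breaks down hydrogen peroxide in peroxisomes. Its log2 values were 8.96, 8.43, 9.03 and 10.10 on inner arrays and 9.63, 10.24, 8.96 and 9.40 on outer arrays. It was the most positive of the members, but inner replicate 4 lay above 3 of the 4 outer arrays. The log2 difference was 0.43 with a 95% interval of -0.53 to 1.39 (limma, adjusted p = 0.848), which leaves room for a difference in either direction.

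Among the glutathione peroxidases, GPX4 (ILMN_137100), the selenoenzyme that reduces lipid peroxides in membranes, had log2 values of 7.83, 7.82, 7.79 and 7.82 on inner arrays. On outer arrays it had 7.71, 7.76, 7.74 and 7.74. All outer values lay below all inner values. The log2 difference was -0.08 with a 95% interval of -0.21 to 0.05 (limma, adjusted p = 0.784), and the deposited intensities before normalization overlapped, with 205.4 to 355.5 on inner and 202.7 to 248.8 on outer arrays. The small size depends on the background estimate described below, with which the difference became -0.30. GPX2 (ILMN_777), the gastrointestinal glutathione peroxidase, was not detected on any array and had intensities of 24.1 to 59.3.

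GPX1 (ILMN_10376), the ubiquitous cytosolic and mitochondrial glutathione peroxidase, and PRDX2 (ILMN_8956), a cytosolic peroxiredoxin abundant in red cells, were bright and yet mostly missed the detection filter. GPX1 had intensities of 1149 to 1631 on inner and 1177 to 1532 on outer arrays, with a detection p below 0.01 on 0 of 8. PRDX2 had intensities of 968.3, 1513, 1610 and 1775 on inner and 892.7, 1004, 1442 and 790.1 on outer arrays, and was detected on 2 inner arrays and 0 outer arrays. Among probes of 1 bead type, all 17261 values of at least 1000 had a detection p of 0.

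The detection p of GPX1 and PRDX2 has a different form from that of most probes. For 19054 probes it was a whole number of steps, with 708 steps from 0 to 1, as a rank among control beads would be. For the other 1535 probes it was not. In all 1535, the 8 values equalled, within 2e-06, the probability that the sum of 2 uniform values lies below a sum of 2 such steps. Of these probes 1530 had a fractional number of beads on at least 1 array, against 52 of those on the steps. Both features are those of a target whose values average 2 bead types, and 1587 targets (7.71%) had at least 1 of them. In such a target, 1 bead type at background raises the detection p however bright the other is.

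**Figure D3:**
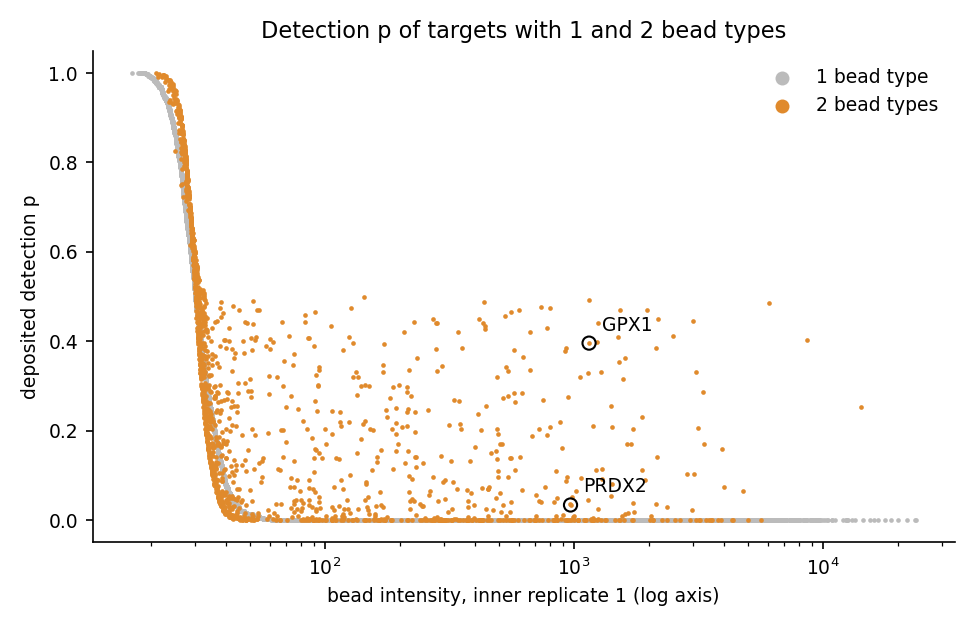
Deposited detection p against bead intensity (log axis) on inner replicate 1, for probes of 1 bead type (grey) and targets of 2 bead types (orange). Probes of 1 bead type drop to a detection p near 0 as intensity rises, while GPX1 and PRDX2, circled, lie among bright targets of 2 bead types with a detection p above 0.01.

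Read as such a sum, the detection p values of both genes describe mainly their dimmer bead type. For PRDX2 the sum was 0.260, 0.165, 0.064 and 0.126 on inner arrays and 0.614, 0.812, 0.312 and 0.706 on outer arrays. The dimmer bead type thus stood higher against the controls on all inner arrays. For GPX1 the sum was 0.890, 0.855, 0.802 and 0.843 on inner arrays and 0.319, 0.155, 0.777 and 0.394 on outer arrays, the opposite direction. Among the 1535 targets off the steps, 2.21% had sums that did not overlap between the groups. Among the 96 of them with an intensity of at least 500 on all arrays, as GPX1 and PRDX2 have, the share was 5.21%. These values were examined after the data were seen and are a description.

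The targets of 2 bead types also entered the neqc background, which is inferred from the detection p. With all probes the background SD was 262.5 to 391.3 intensity units per array, against 6.24 to 12.4 with the probes on the steps alone. The larger value draws dim probes such as GPX4 together. A second fit took the background from the probes on the steps and judged targets of 2 bead types by their intensity. The reference was the highest undetected intensity among probes of 1 bead type on the array (51.3 to 76.8). A target of 2 bead types counted as detected at 2 times that intensity or more. This second fit was chosen after the data were seen and tested 6948 probes.

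In that second fit SOD2 differed by -1.01 with a 95% interval of -1.49 to -0.53 (limma, adjusted p = 0.270), and its p ranked 34 of 6948. PRDX2 had log2 values of 10.35, 10.24, 10.58 and 10.91 on inner and 9.55, 10.08, 10.37 and 9.68 on outer arrays. Outer replicate 3 lay above the lower pair of inner arrays, so the groups overlapped. The log2 difference of PRDX2 was -0.60, with a 95% interval of -1.24 to 0.03 (limma, adjusted p = 0.639). GPX1 differed by -0.08, with an interval of -0.54 to 0.37 (adjusted p = 0.950). GPX4 differed by -0.30, with an interval of -0.71 to 0.12 (adjusted p = 0.748), and its groups again did not overlap.

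The other peroxiredoxins showed smaller differences. PRDX3 (ILMN_13029), the peroxiredoxin of the mitochondrial matrix and thus a neighbour of SOD2, had log2 values of 11.46 to 11.87 on inner arrays and of 12.01, 11.86, 10.91 and 11.44 on outer arrays. Outer replicate 3 was the lowest of all and outer replicate 1 the highest. The log2 difference was -0.08 with a 95% interval of -0.65 to 0.50 (limma, adjusted p = 0.981), and it was 0.14 without outer replicate 3. PRDX5, found in mitochondria, peroxisomes and cytosol, was measured by probes for transcript variant 3 (ILMN_17596) and variant 1 (ILMN_19409). Their log2 differences of -0.03 and -0.02 had intervals of -0.23 to 0.17 and -0.24 to 0.20, and both signs turned with median scaling, to 0.08 and 0.07. PRDX6 (ILMN_1676), which uses glutathione rather than thioredoxin, differed by -0.16 with an interval of -0.40 to 0.08 (limma, adjusted p = 0.756), and its groups overlapped, with 12.32 to 12.60 on outer and 12.50 to 12.84 on inner arrays.

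**Figure D4:**
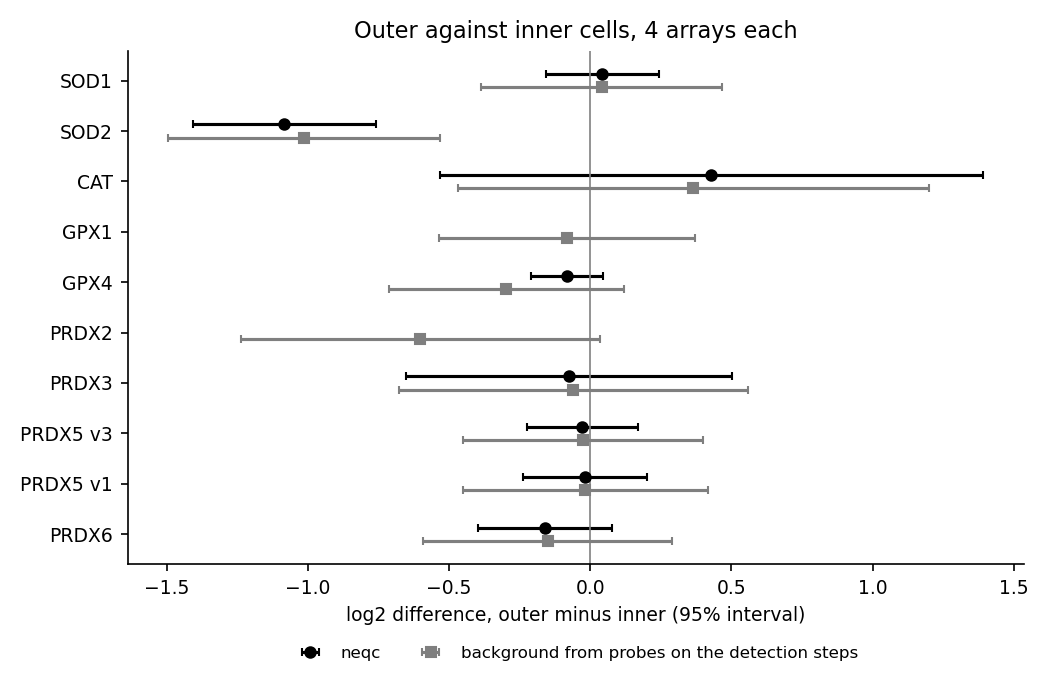
Log2 difference of outer minus inner with its 95% interval for each tested member probe, from the neqc fit (black circles) and from the fit with the background of probes on the regular detection steps (grey squares), 4 arrays per group. The SOD2 interval excludes 0 in both fits, and GPX1 and PRDX2 were tested in the second fit only.

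Over the members, 8 of 12 probes, for 7 of 10 genes, passed the detection filter in the neqc fit. Their log2 differences were positive for 2 probes and negative for 6, with a median of -0.05 against 0.00 over all probes tested. No member probe had an adjusted p below 0.05, where the 1 probe that had one was for KNTC1, a kinetochore gene. At an unadjusted p below 0.05 there was 1 member probe, SOD2, against 8.06% of all. The 2 member probes with groups that did not overlap, both lower in outer cells, stand against 5.26% of all probes in either direction and 2.69% in that one. In the second fit 10 probes for 9 genes were tested, 2 positive and 8 negative. There 0 passed the adjusted threshold (0.0576% of all, namely the probes for GADD45A, FLJ38482, ZNF616 and FABP4), 1 had an unadjusted p below 0.05 (7.99% of all) and 2 did not overlap (5.27% of all).

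The within-array difference to SOD2 was also taken for the other members with an intensity above background. SOD2 minus the other probe did not overlap between the groups for SOD1, GPX1, GPX4, both PRDX5 probes and PRDX6, with shifts of -1.13 to -0.92. It overlapped for CAT, PRDX3 and PRDX2, and PRDX2 had the smallest shift, -0.30. In the second fit the probes without overlap had shifts from -1.05 for SOD1 to -0.72 for GPX4, a wider range. PRDX3 no longer overlapped there, with -0.95, and the shift for PRDX2 was -0.41. GPX1 and PRDX2 had values in the neqc fit but were not tested there. These shifts all share the SOD2 values, and a probe that differs little between the groups gives nearly the -1.08 of SOD2 itself. The lack of overlap therefore describes SOD2 and is not a result about the other members. The share of all probes tested that would show it was not taken.

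**Figure D5:**
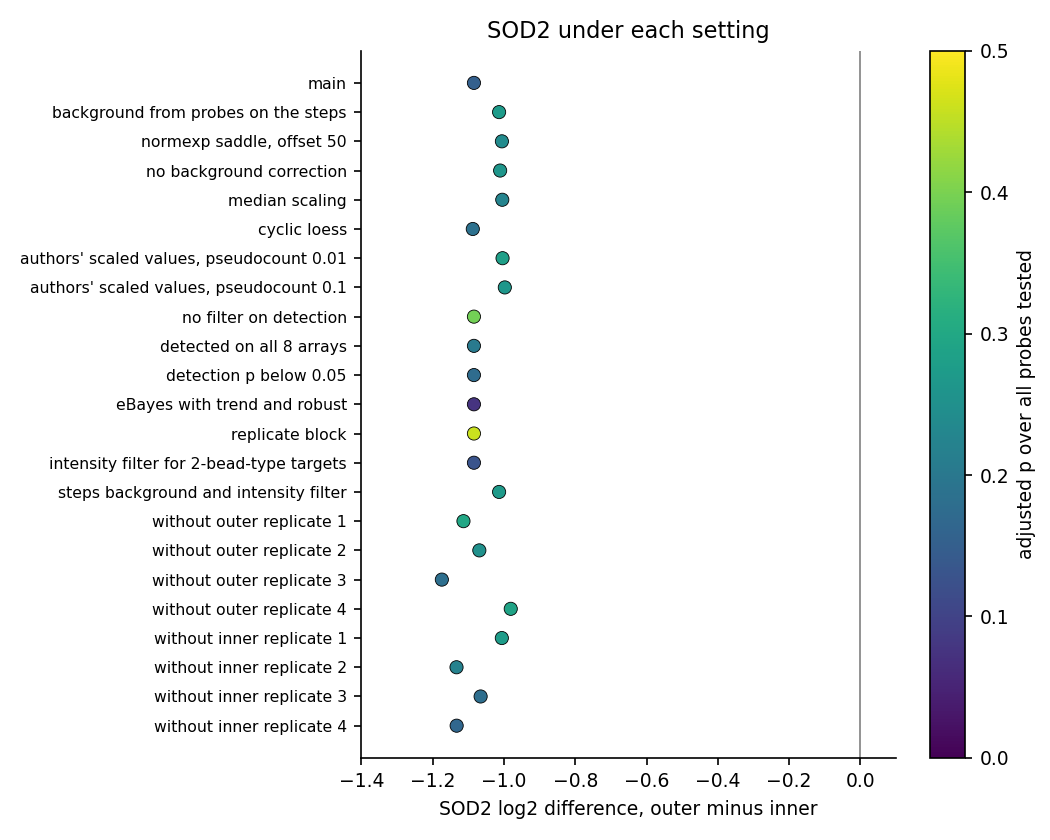
SOD2 log2 difference of outer minus inner under the reported fit (main) and each other setting, with colour for the adjusted p over all probes tested in that setting. All values lie between -1.17 and -0.98, and the adjusted p lies between 0.076 and 0.460.

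Across all 8 arrays, the tested probes of other genes whose log2 values followed SOD2 most closely were those of MRPS22, NDUFB9, TSC22D3, MGST1 and COX7B, with Pearson r of 0.957, 0.955, 0.954, 0.952 and 0.951. These r are descriptions, since the arrays form 2 groups and any gene that differs between them follows SOD2. MRPS22 encodes a protein of the mitochondrial ribosome, and NDUFB9 and COX7B encode subunits of respiratory complexes I and IV. TSC22D3, a glucocorticoid-induced gene, differed by -0.84 and MGST1, a microsomal glutathione transferase, by -0.83. The MGST1 probe is a target of 2 bead types. The log2 differences of MRPS22, NDUFB9 and COX7B were -0.55, -0.23 and -0.27, smaller than that of SOD2. With the second fit FABP4, a fatty acid binding protein, took the place of COX7B, with r of 0.953 and a log2 difference of -3.53 (limma, adjusted p = 0.0083). In the neqc fit FABP4 differed by -1.01 (limma, adjusted p = 0.180). Its mean in the second fit was 5.67 on outer and 9.20 on inner arrays, where the undetected SOD2 probe averaged 4.34 in both groups. The outer level of FABP4 was thus near background, so the size of its difference, its adjusted p and its r are uncertain. Among the members themselves, GPX4 had an r of 0.877 with SOD2 and PRDX2 of 0.738, while CAT and SOD1 had -0.429 and -0.341.

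Genes that make the substrate of these enzymes were taken as a list. Of 16 genes, 6 were tested, 5 with a positive and 1 with a negative difference, and 0 passed the adjusted threshold. The negative one was MAOA, a mitochondrial outer-membrane oxidase that releases hydrogen peroxide, which averaged 13.36 ± 0.08 on outer and 13.92 ± 0.06 on inner arrays (SD, n = 4), with a log2 difference of -0.56 (limma, adjusted p = 0.152). XDH, which can release superoxide, differed by 0.71 (limma, adjusted p = 0.820), or by 1.17 without outer replicate 2. It was detected on 3 outer and 3 inner arrays, and the 1.17 still includes the inner array without detection. RAC1, a GTPase that activates NADPH oxidases, differed by 0.36 (limma, adjusted p = 0.825). The list's median was 0.39, against 0.00 over all probes. Its summed level on the linear scale ran the other way, with 15546 to 16764 on outer and 18906 to 21322 on inner arrays, without overlap. MAOA makes up most of that sum, so its direction is mainly that of MAOA and not of the list.

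The thioredoxin and glutathione systems recharge the peroxidases. Of the 10 tested genes of the peroxiredoxin and thioredoxin list, 4 had a positive and 6 a negative difference, with a median of -0.15, and 0 had an unadjusted p below 0.05. TXNIP, which binds and inhibits thioredoxin, differed by -0.18, SESN2, a sestrin, by -0.74 (-0.25 without inner replicate 1) and PRDX4, the peroxiredoxin of the endoplasmic reticulum, by 0.13. Of 13 tested genes of the glutathione list, 2 were positive and 11 negative, with a median of -0.15. An unadjusted p below 0.05 was reached by 2 of them, both lower in outer cells, where 4.23% of all probes had such a p. They were MGST1 at -0.83 and MGST3, also a microsomal transferase, at -0.53 (limma, adjusted p = 0.237 and 0.394). This MGST1 probe is a target of 2 bead types. The other MGST1 probes were detected on 0 arrays and on 1 outer array. In the second fit MGST1 alone, of 14 tested, had such a p (3.94% of all). GSTP1, a cytosolic glutathione transferase, differed by -0.21. The summed level of the list was 23385 to 25874 on outer and 27725 to 31016 on inner arrays, without overlap. This sum, like those of the lists below, weighs its brightest genes most and is not a result for every gene listed. How often such sums fail to overlap was not examined. The rate-limiting synthesis genes GCLC and GCLM are on the list too and were not among those with a small p.

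The list for metal supply and extracellular dismutase had 2 positive and 2 negative differences among 4 tested genes, and that for selenoprotein synthesis 1 and 3 among 4. ATOX1, a copper chaperone, differed by -0.11. SLC39A14 and SLC39A8, importers that carry manganese, differed by -0.37 and 0.15. PSTK, SECISBP2 and SEPHS1, which act in selenocysteine synthesis and insertion, differed by -0.77, -0.07 and 0.01. No gene of these lists had an unadjusted p below 0.05. SOD3, the extracellular dismutase, was not detected on any array.

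Regulators known to act on SOD2 had 4 positive and 5 negative differences among 9 tested. FOXO1, a forkhead factor, was at 10.13 ± 0.39 on outer and 11.10 ± 0.47 on inner arrays (SD, n = 4), with a log2 difference of -0.97 (limma, adjusted p = 0.417). FOXO3, which activates SOD2 in quiescent cells, differed by -0.46 (-0.88 without inner replicate 4) and KEAP1, the inhibitor of NRF2, by 0.32 (limma, adjusted p = 0.887 and 0.630). Genes induced by NF-kB, a class to which SOD2 belongs, had 7 positive and 5 negative differences among 12 tested. NFKBIA, the inhibitor that NF-kB induces, differed by -1.03 (limma, adjusted p = 0.193), close in size to SOD2. SAA2, an acute-phase gene, differed by -0.17 and TNIP1, an inhibitor of NF-kB signalling, by 0.43. The list split differently in the second fit, with 6 positive and 7 negative among 13. Of the negative, 4 had an unadjusted p below 0.05 (3.94% of all). SAA2 was at -2.02 there. Its detection p fell below 0.01 on all 4 inner arrays but on only 1 outer array. SAA2 was thus tested because of its inner values, and neither fit gives a sign free of that selection. Most of its outer values were not told from background, so the size of its difference is uncertain. Detection was uneven for other genes of the list too. ICAM1 was detected on 4 outer and 1 inner arrays, CCL20 on 4 outer and 2 inner, and NFKBIE on 1 outer and 3 inner. The signs of these genes, and the counts that include them, are therefore not independent of the filter. The summed level of this list was 7509 to 9451 on outer and 9996 to 12556 on inner arrays with neqc, without overlap, and it overlapped in the second fit.

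Genes of general mitochondrial content were listed because SOD2 acts in mitochondria. Of 16 tested, 6 were positive and 10 negative, with a median of -0.04. COX4I1, a subunit of complex IV, differed by -0.31, VDAC1, the outer-membrane channel, by 0.24 and TIMM23, an import channel, by 0.23, with adjusted p of 0.447, 0.454 and 0.719 (limma). Their summed level was 96459 to 100445 on outer and 96427 to 103272 on inner arrays, on the linear scale after normalization, and overlapped.

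Summed markers of other epithelial states were lower on the outer arrays, as SOD2 was. The 6 tested of 7 squamous markers were 1 positive and 5 negative, and their summed level was 5528 to 5832 on outer and 7685 to 10629 on inner arrays, without overlap. IVL was not detected on any array. The 4 tested of 7 luminal markers were all negative, with a summed level of 997.3 to 1691 on outer and 1983 to 3750 on inner arrays. One of them, ELF3, was detected on 1 outer and 4 inner arrays. It passed the filter through the inner arrays, so its sign is not independent of the filter. KRT19 and CLDN4 were at 0 arrays. The 6 tested of 7 basal markers were 4 positive and 2 negative, with a summed level of 7845 to 9156 on outer and 5824 to 7877 on inner arrays, which overlapped in the neqc fit. In the second fit it was 9610 to 10808 against 7432 to 9478, without overlap. The part of these markers in the SOD2 difference was not tested. The fibroblast markers, 2 tested of 6, overlapped at 1147 to 3779 and 1379 to 4107, and PDGFRB and LUM were at 0 arrays. DCN was detected by 1 of its probes on all 8 arrays, and by the others on 2 inner arrays and on 0 arrays. COL1A2 was detected on 4 outer and 2 inner arrays, COL3A1 on 1 of each group and COL1A1 on 1 inner array. The leukocyte markers, 2 tested of 8, overlapped at 382.8 to 424.9 and 375.9 to 807.1.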

How the data were processed

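Per the file headers, the authors deposited for each probe a bead-averaged intensity, its standard error and a detection p-value. The intensity had received neither background subtraction nor normalization, as its values show. The authors' scaled values are a ratio to each array's mean intensity, as recomputed from the columns. The deposited inner over outer ratio of these values is a ratio of group medians, as recomputed for SOD2 and CAT. Scanner software is not given in the sources used here. With limma 3.58.1 (R 4.3.3), neqc gave log2 values: a normexp background inferred from the detection p-values, an offset of 16 and quantile normalization. A probe was tested if its detection p was below 0.01 on 4 or more of the 8 arrays. Outer minus inner was estimated by lmFit and eBayes with Benjamini-Hochberg adjustment over all 6698 probes and a threshold of 0.05. A single probe lacked beads on an array and was dropped. Two-sided exact permutation tests used all 70 splits of the arrays. The fit was tested on simulated data. The number of arrays limits the precision.

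The members and gene lists were chosen with earlier results of these data known, and the lists, in their fixed form, are not independent evidence. Named are every member probe, the 3 tested genes of each pathway list with the smallest unadjusted p, and the 5 probes that correlate best with SOD2. GCLC, GCLM, SOD3, KNTC1, ICAM1, CCL20, NFKBIE and the probes called in the second fit were named after their values were seen. A gene in a list is represented by its brightest probe on average, and symbols were current for 15331 probes, updated through RefSeq for 3575 and kept for 1683. Samples were grouped by their titles. The replicate numbers did not pair the arrays. Alternatives were other background corrections, scalings, filters and variance models, the authors' scaled values, a replicate block and leaving out each array.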

Additional observations from a re-analysis of the deposited data

Results flagged for a closer look

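Values far from the other 3 arrays of their group were sought in 80 groups of 4 arrays, where chance gives about 1 in 20, and 6 were found. SOD1 was at 13.07 on outer replicate 4, against 12.82 to 12.84 on the other outer arrays, and its small positive difference rests on that array. GPX4 was at 7.79 on inner replicate 3, against 7.82 to 7.83 on the others, and was still above all outer arrays. SESN2 was at 9.91 on inner replicate 1, against 7.81 to 8.04, and without it its log2 difference of -0.74 was -0.25. ATOX1 was at 12.30 on inner replicate 1, against 12.35 on each of the others. XDH was at 7.44 on outer replicate 2, against 9.22 to 9.47, and without it its difference of 0.71 was 1.17. That 7.44 is close to the 7.42 that the undetected SOD2 probe averaged in both groups. FOXO3, a target of 2 bead types, was at 7.91 on inner replicate 4, against 9.43 to 9.74, and without it its difference of -0.46 was -0.88.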

How the results depend on the processing

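SOD2 stayed negative in all 23 other settings, from -1.17 to -0.98 (-1.17 to -0.98 when 1 array was left out), and its adjusted p, from 0.076 to 0.460 in the fits, passed in 0 of them. The exact permutation test over arrays, which concerns SOD2 alone, gave -1.08 with p = 0.0286. The shift of SOD2 minus SOD1 was -1.23 to -0.96, and with the replicate block, where 4 pairs allow no p below 0.125, it was -1.13 with p = 0.125 (exact sign-flip test). Replicate numbers are shared by the groups, but same-numbered arrays did not deviate together (correlations of -0.039 to 0.027), so the block is only an alternative, and with it the adjusted p of SOD2 was 0.460. Member probes called numbered 0 throughout. Over all probes, 1 was called in the reported fit, 4 with the background from probes on the steps with or without the intensity filter, 3 without background correction and with the authors' scaled values at a pseudocount of 0.01, 2 at a pseudocount of 0.1 and with the saddle-point normexp, and 0 without a detection filter, with detection on all 8 arrays or with a detection p below 0.05. It was 0 to 2 with 1 array left out. Median scaling left 1 member probe without overlap in place of 2, and leaving out 1 array gave 2 to 3. Signs turned for members near 0: with median scaling PRDX3 was 0.0137 and the PRDX5 probes 0.0802 and 0.0670, and the PRDX5 probe for variant 3 was 0.0047 with cyclic loess, 0.0071 and 0.0070 with the authors' values. With 1 array left out, SOD1 ranged from -0.0185 to 0.0812, PRDX3 from -0.23 to 0.14, and the PRDX5 probes from -0.0684 to 0.0200 and from -0.0838 to 0.0268. CAT stayed positive, from 0.19 to 0.75. The causes of these moves were not tested, beyond fewer arrays where 1 was left out. GPX4 stayed negative, from -0.30 to -0.05, the size depending on the background. Scaling moved the median of all probes by no more than 0.03.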
